A study of Mus musculus with 6 samples.

Results

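Urocortin 3, its candidate receptors and the binding protein of its family were followed across 3 populations of sorted mouse islet cells. The 4 genes, Ucn3, Crhr1, Crhr2 and Crhbp, were taken by symbol, and all 4 were found among the 46932 usable gene symbols of the table. Of these 4, only Ucn3 and Crhr2 reached the filter of the main test, a level of 1 RPKM in 2 or more libraries, which kept 13022 genes. RPKM divides a gene's reads by its length in kilobases and by the library's depth in M reads.

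All animals were adult mice carrying mIns1-H2b-mCherry, a nuclear red reporter under the Ins1 promoter that marks insulin-making cells, together with Sst-cre and a floxed YFP allele, so that cells with a history of somatostatin promoter activity and their descendants keep YFP. The 3 groups came from the same islets and shared genotype and handling: beta cells were mCherry-positive, delta cells were YFP-positive, and double-positive cells, called transdifferentiated in the labels, carried both. For each sex the islets of 10 to 12 animals were combined and kept overnight in RPMI medium (5.5 mM glucose, FBS at 10%) before sorting, and each group has 2 libraries, 1 from the male and 1 from the female pool. Each library is therefore a pool of animals, p-values measure the spread between pools, and the YFP label depends on recombination by Cre under the Sst promoter. The labels do not state an age in weeks.

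Urocortin 3 belongs to the corticotropin-releasing factor (CRF) family of peptides. CRF itself (Crh) and urocortin 1 (Ucn) bind the type 1 receptor CRHR1, whereas urocortin 2 (Ucn2) and urocortin 3 prefer the type 2 receptor CRHR2. Both receptors are class B1 G protein-coupled receptors, the family that also holds the glucagon and incretin receptors, and they couple mainly to Gs and cyclic AMP, while the secreted protein CRHBP binds and sequesters some of the ligands. In the mouse islet, urocortin 3 is known as a peptide co-released with insulin by mature beta cells that acts on delta cells to promote somatostatin release, and it is widely used as a marker of beta-cell maturity.

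The genes lie apart in the genome (GRCm38, GENCODE M21). Ucn3 (ENSMUSG00000044988.7) is at chr13:3940688-3945349 on the minus strand, with 2 exons and 1478 exonic bases. Crhr1 (ENSMUSG00000018634.10) is at chr11:104132855-104175523 on the plus strand with 2460 exonic bases, Crhr2 (ENSMUSG00000003476.16) at chr6:55090049-55133016 on the minus strand with 5115, and Crhbp (ENSMUSG00000021680.8) at chr13:95431371-95444924 on the minus strand with 1800. No other annotated gene overlapped the exons of these 4 genes, so reads are not shared with a neighbour.

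The promoters of the peptide gene and of both receptor genes are shown because these 3 genes had 3 different patterns across the populations. The RefSeq sequences (GRCm38.p6) run from 250 bases before to 50 bases after the annotated start, 5′ to 3′ on the gene's own strand, and all 4 genes matched an entry. They lie at chr13:3945300-3945599 for Ucn3, chr11:104132531-104132830 for Crhr1 and chr6:55132967-55133266 for Crhr2. Capitals mark matches to 4 short motifs on either strand. The promoter box that positions the polymerase was searched as TATAAA, the motif of Sp-family factors as GGGCGG, the E-box as CANNTG, and the core of motifs bound by homeodomain factors as TAAT. No 2 matches overlapped.
Ucn3: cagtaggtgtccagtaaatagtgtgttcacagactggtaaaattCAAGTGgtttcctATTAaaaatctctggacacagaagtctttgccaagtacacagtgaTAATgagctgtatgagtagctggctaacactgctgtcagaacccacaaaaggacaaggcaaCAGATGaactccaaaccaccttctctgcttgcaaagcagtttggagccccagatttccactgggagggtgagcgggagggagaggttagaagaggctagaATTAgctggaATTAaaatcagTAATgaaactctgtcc
Crhr2: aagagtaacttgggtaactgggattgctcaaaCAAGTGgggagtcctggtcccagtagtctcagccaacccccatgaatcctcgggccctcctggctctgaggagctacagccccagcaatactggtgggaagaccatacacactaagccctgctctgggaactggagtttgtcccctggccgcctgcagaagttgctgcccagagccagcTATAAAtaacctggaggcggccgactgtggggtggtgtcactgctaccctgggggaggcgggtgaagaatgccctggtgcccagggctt
Crhr1: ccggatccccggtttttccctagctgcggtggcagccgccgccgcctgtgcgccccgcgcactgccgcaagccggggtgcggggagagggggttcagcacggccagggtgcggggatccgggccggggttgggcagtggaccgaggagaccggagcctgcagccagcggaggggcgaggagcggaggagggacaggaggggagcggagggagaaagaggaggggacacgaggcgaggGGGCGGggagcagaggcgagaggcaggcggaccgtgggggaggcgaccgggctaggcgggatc
The Ucn3 window held 2 E-boxes, with first bases 206 and 87 bases before the start, and 5 TAAT cores, of which 3 lay after the start. The Crhr2 window held TATAAA 39 bases before the start and 1 E-box 218 bases before it. In the Crhr1 window the only match was GGGCGG 13 bases before the start, and 75% of its bases were G or C, more than in 96.1% of 32851 promoters. The GC content of the Ucn3 window was 44.7% and that of the Crhr2 window 59%, around the median of 52.7%. Among all promoters of this length, 13.6% held TATAAA, 35.7% GGGCGG, 72.3% CANNTG and 58.0% TAAT. A match is a string of letters in the window, and binding was not measured.

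Sequencing depth, recovered from the steps in low RPKM values, was between 10.9 M reads (female double-positive pool) and 21.6 M reads (male beta pool). Marker RNA followed the sort, but Ins1 and Sst were tied to the sorting labels and are no check of identity. All 6 beta markers examined (Ins1, Ins2, Iapp, Mafa, Nkx6-1, Slc2a2) were higher in beta than in delta cells. All 4 delta markers (Sst, Hhex, Rbp4, Ghsr) were lower. Among the 13022 genes of that comparison, 11.7% were called higher and 46.3% lower. Hhex and Ghsr were under 1 RPKM in the beta libraries and met the filter only through the other groups. A lower beta level was thus built into their being tested. The Iapp call was lost with no filter on low values (1.01, SE 1.66, limma adjusted p = 0.70). Male and female delta libraries also held the alpha-cell hormone Gcg at 14573 and 15846 RPKM and the PP-cell hormone Ppy at 16735 and 15817 RPKM. Insulin RNA fills much of the beta libraries, and median-of-ratios factors were 0.770 and 0.848 there against 1.11 to 1.15 in the other 4. That scaling moved the median log2 fold change of all genes from -0.36 to 0.04 in beta against delta cells and from 0.32 to -0.08 in double-positive against beta cells. The share of calls that were higher went from 20.2% to 52.5% in the former comparison and from 83.4% to 45.4% in the latter, so small differences against beta cells depend on it.

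Ucn3, the peptide gene, was a beta-cell transcript with an intermediate level in double-positive cells. In the male and female pools it stood at 362 and 432 RPKM in beta cells (11543 and 13049 reads), at 107 and 157 RPKM in double-positive cells (1986 and 2522 reads), and at 2.43 and 2.42 RPKM in delta cells (61 and 56 reads). The 3 groups did not overlap, and the order beta, double-positive, delta held in each pool. With 2 libraries each, groups also lay apart for genes that did not pass limma, such as Pcsk1n in beta against delta cells (limma adjusted p = 0.50). Means were 397 ± 49.1, 132 ± 34.9 and 2.42 ± 0.0113 RPKM (SD, n = 2 libraries each). By expression rank among all symbols, Ucn3 was the 62nd and 36th gene in the beta libraries, the 246th and 134th in the double-positive libraries, and the 10476th and 10303rd in the delta libraries.

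Between beta and delta cells the log2 fold change of Ucn3 was 6.85 (SE 0.19, limma adjusted p = 3.71e-06), a call in a comparison in which 11.7% of the 13022 genes were higher and 46.3% lower in beta cells. Double-positive cells had less Ucn3 than beta cells, with a log2 fold change of -1.60 (SE 0.19, limma adjusted p = 9.73e-04), where 8.46% of genes were lower and 42.5% higher. They had more than delta cells, at 5.25 (SE 0.19, limma adjusted p = 6.81e-05), where 5.53% of genes were higher and 7.2% lower. Because mCherry under the Ins1 promoter was a sorting criterion, insulin-making cells were selected in the beta and double-positive groups. Selection by this label and the level of beta-cell RNA in a group cannot be told apart. Some macrophage markers moved with Ucn3. Of 6 markers 4 were tested, and Cd68, Csf1r and C1qb were higher in beta than in delta cells and lower in double-positive than in beta cells, whereas C1qa was lower in beta than in delta cells. Csf1r and C1qb met the filter only through the beta libraries, so a higher beta level was built into their being tested. C1qb was at 9.76 and 12.3 RPKM in beta, 0.220 and 0.843 RPKM in double-positive and 0.0542 and 0.0586 RPKM in delta libraries. The sum over the 6 markers, in which C1qa weighs most, was 74.3 and 88.5, 44.3 and 45.5, and 73.4 and 87.9 RPKM, with Adgre1 at 0 in both delta libraries and Ptprc at 0 in the male double-positive and female delta libraries. Their part in the Ucn3 result was not tested. After median-of-ratios scaling the Ucn3 differences were 7.28, -2.08 and 5.21. In a bulk library, fewer Ucn3-making cells and less Ucn3 RNA per cell cannot be told apart.

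**Figure D1:**
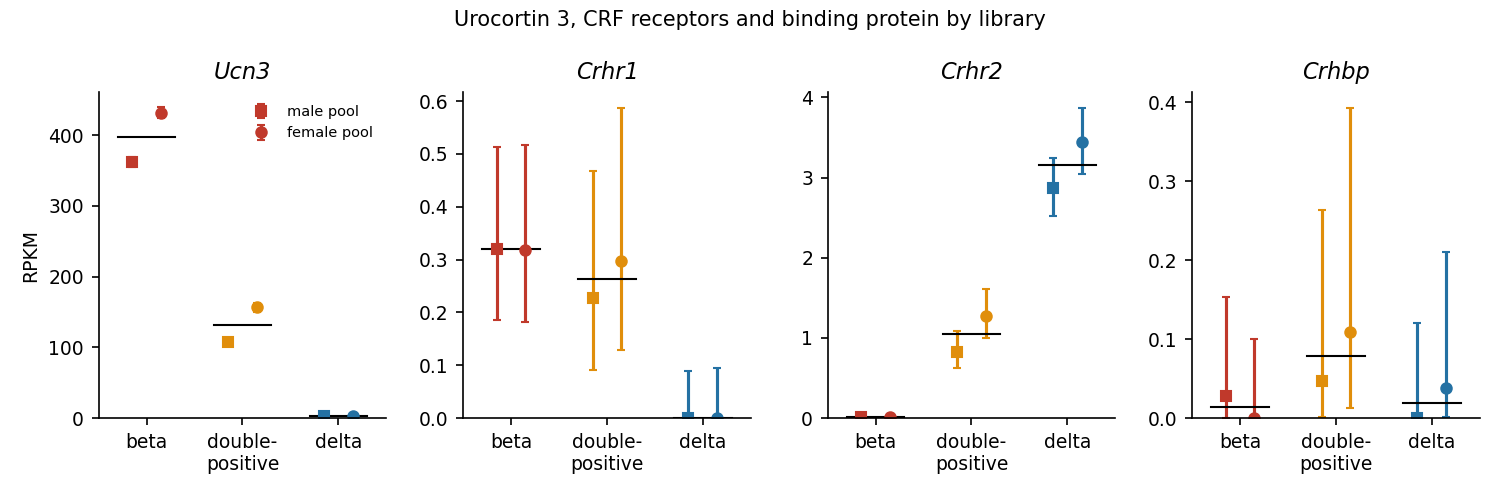
Expression of Ucn3, Crhr1, Crhr2 and Crhbp (y axes, RPKM, a separate linear scale per gene) in beta, double-positive and delta libraries. Squares are male and circles female pools, bars are 95% Poisson intervals of the recovered reads (counting error only), and lines are group means; Ucn3 goes from 397 RPKM in beta to 2.42 RPKM in delta cells, and Crhr2 the other way from 0.00932 to 3.16 RPKM.

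Set against other beta-cell transcripts, the Ucn3 level of double-positive cells was among the lowest. It was 29.6% of the beta level in the male pool and 36.3% in the female pool. Ins2 was at 28.0% and 43.1%, Ins1 at 26.6% and 40.2%, and Mafa, a transcription factor of mature beta cells, at 14.8% and 34.5%. Higher shares were held by G6pc2, an islet glucose-6-phosphatase subunit (65.7% and 62.3%), Nkx6-1, a beta-cell transcription factor (61.4% and 63.3%), the glucose transporter Slc2a2 (74.7% and 66.0%) and Pdx1, a regulator of insulin transcription (79.5% and 77.0%). The granule zinc transporter Slc30a8 was at about the beta level in RPKM (100.1% and 94.0%). These are per-pool ratios without median-of-ratios scaling, and the differences between genes were not tested. With that scaling Slc30a8 was lower in double-positive than in beta cells (-0.52, limma adjusted p = 0.026). Pdx1 (-0.82, limma adjusted p = 0.011) and Slc2a2 (-0.97, limma adjusted p = 0.049) were lower as well, so shares of the beta level depend on scaling.

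**Figure D2:**
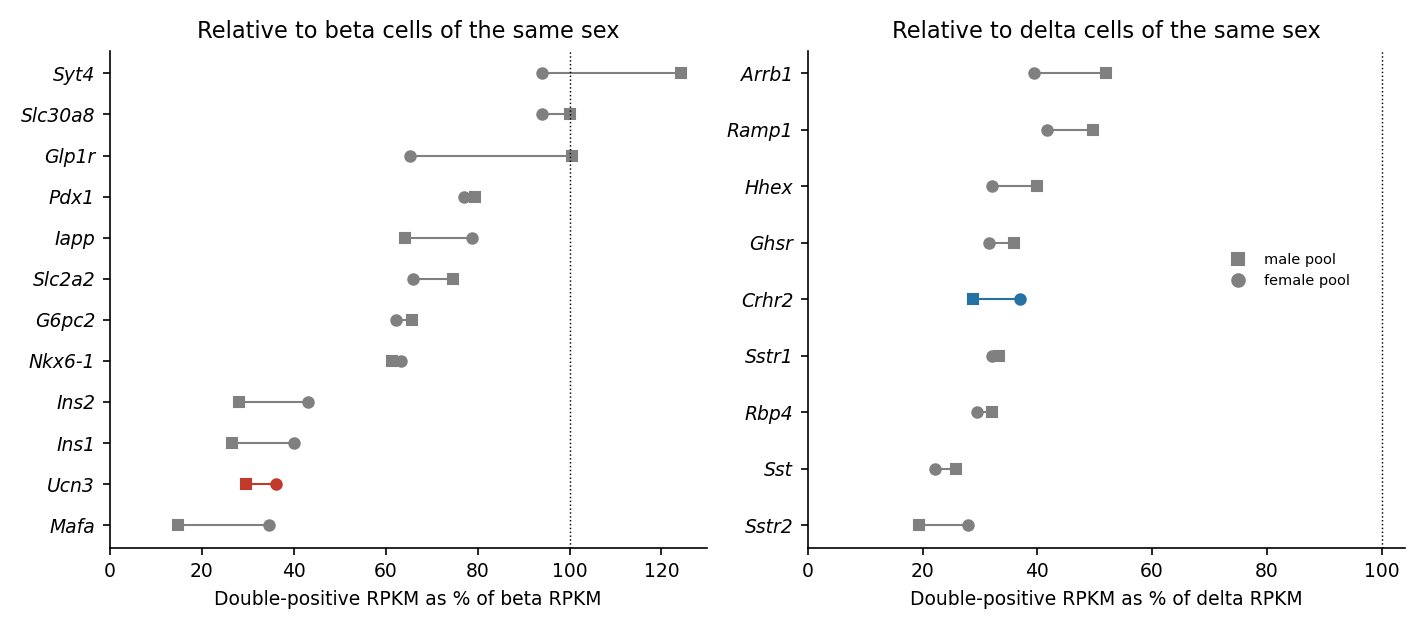
Level in double-positive cells as a percentage of the beta level for beta-cell genes (left, Ucn3 in red) and of the delta level for delta-cell genes (right, Crhr2 in blue), in RPKM without median-of-ratios scaling. Squares are male and circles female pools, and the dotted line marks 100%; Ucn3 lies at 29.6% and 36.3%, beside Ins1 and Ins2, and Crhr2 at 28.8% and 37.0%.

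Of the 11 genes described here as companions of Ucn3 in mature beta cells, 10 were higher and 0 lower in beta cells compared with delta cells. Over all genes 11.7% were higher and 46.3% lower. The median log2 fold change of the companions was 3.89, and -0.36 over all genes. In double-positive against beta cells 6 were lower (Mafa, G6pc2, Ins1, Ins2, Iapp and Nkx6-1) and 0 higher, beside 8.46% and 42.5% of all genes. Their median was -0.50 against 0.32 over all genes. With median-of-ratios scaling 9 were lower. Each of these 6 calls was lost under at least 1 alternative setting, which was not so for Ucn3. For Ins1 and Ins2 this happened only with the filter on low values removed, where the estimate stayed and its standard error grew. Ins2 went from -1.52 (SE 0.20, limma adjusted p = 0.0015) to -1.52 (SE 1.54, limma adjusted p = 0.53). These losses therefore do not rank Ucn3 above insulin in stability. The Nkx6-1 call was lost with 0.1 RPKM required in 2 libraries (limma adjusted p = 0.071), and its difference was -0.41 without beta replicate 2. Against delta cells 9 companions were higher in double-positive cells and 0 lower, beside 5.53% and 7.2% of all genes. Of these 9 calls 7 held in all 13 alternative fits.

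The 5 genes whose profile over the 6 libraries lay closest to Ucn3, by Euclidean distance between centred log2(RPKM + 1) values among 11608 genes, were Ins1 (0.864), Ins2 (0.912), G6pc2 (1.01), Sytl4 (1.13) and Prss53 (1.53). Sytl4, a granule-docking protein, was at 84.7 and 123 RPKM in the male and female beta libraries, 47.6 and 60.1 RPKM in double-positive and 0.805 and 0.983 RPKM in delta libraries. The ratio of Ucn3 to Ins2 RPKM stayed in a narrow range over all 6 libraries: 0.149% and 0.255% in beta, 0.157% and 0.214% in double-positive and 0.216% and 0.177% in delta libraries. So the low Ucn3 signal of delta libraries, 0.672% and 0.560% of the beta level, came with Ins2 at 0.462% and 0.808% of its beta level. Whether both come from a small share of beta cells in the delta sort was not tested.

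Crhr2, the receptor that urocortin 3 prefers, had the opposite pattern. It was at 0.00907 and 0.00956 RPKM in the beta libraries, which is 1 read in each, at 0.827 and 1.27 RPKM in the double-positive libraries (53 and 71 reads) and at 2.87 and 3.44 RPKM in the delta libraries (249 and 276 reads). The groups did not overlap, which with 2 libraries each is also seen in genes that did not pass limma. Both pools gave the order delta, double-positive, beta. The level in delta cells, 3.16 ± 0.405 RPKM (SD, n = 2), was 338 times that of beta cells by reads per depth, with a 95% counting interval of 93.1 to 2797 that is wide because of the 2 beta reads. Double-positive cells, at 1.05 ± 0.316 RPKM, were 111 times above beta cells (30.1 to 928), and delta cells were 3.04 times above double-positive cells (2.49 to 3.73).

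On the log2(RPKM + 1) scale, which shrinks differences of low genes, Crhr2 differed by -2.04 in beta against delta cells (SE 0.16, limma adjusted p = 1.26e-04) and by 1.01 in double-positive against beta cells (SE 0.16, limma adjusted p = 0.00275). In double-positive against delta cells the difference was -1.02 (SE 0.16, limma adjusted p = 0.00952). This last call was lost without delta replicate 2, the female pool (-0.93, adjusted p = 0.0598). With a pseudocount of 0.1 in place of 1 the differences were -4.89, 3.37 and -1.52, in the same order of comparisons. Scaling left them at -1.91, 0.93 and -0.98. Crhr2 met the filter of 1 RPKM only through delta and double-positive libraries, so a lower beta level was built into its being tested.

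**Figure D3:**
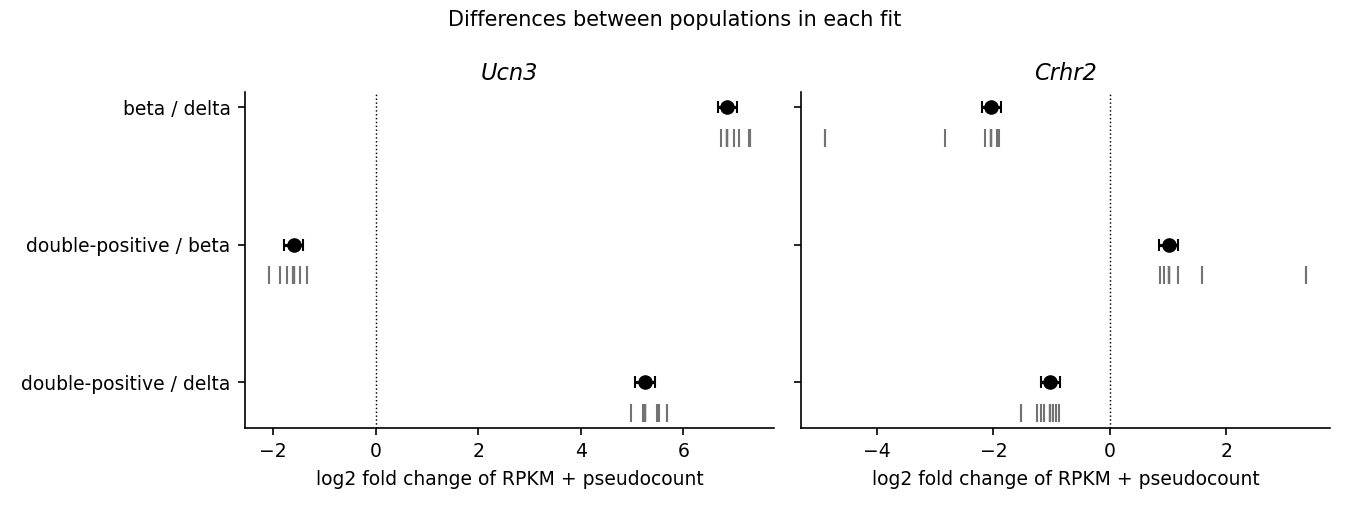
Log2 fold changes (x axis) of Ucn3 and Crhr2 in the 3 comparisons named on the y axis. Black points with bars are the limma estimates and standard errors on log2(RPKM + 1), and grey ticks are the same difference under each alternative pseudocount, filter, scaling, block or left-out library; all ticks stay on the side of 0 of their point, and the Crhr2 ticks at -4.89 and 3.37 are those with a pseudocount of 0.1.

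Relative to delta cells of its own pool, double-positive Crhr2 was at 28.8% in the male and 37.0% in the female pool. Transcripts of delta-cell identity held like shares: the hormone Sst was at 25.8% and 22.1%, the transcription factor Hhex at 39.9% and 32.1%, the retinol carrier Rbp4 at 32.2% and 29.5%, and the ghrelin receptor Ghsr at 36.0% and 31.5%. In beta cells Crhr2 was at 0.316% and 0.278% of the delta level, and Sst at 0.143% and 0.148%. The profiles closest to Crhr2 were those of Syt6, a synaptotagmin (distance 0.144), the palmitoyltransferase Zdhhc14 (0.169), the potassium channel Kcnd2 (0.177), the transcription factor Sox9 (0.214) and Pianp (0.225). Kcnd2 was at 0 in both beta libraries, at 0.914 and 1.21 RPKM in double-positive and at 3.24 and 3.90 RPKM in delta libraries.

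RNA of other endocrine cells moved with Crhr2. All 3 alpha-cell markers examined (Gcg, Irx1, Irx2) and Ppy, the marker of PP cells, were higher in delta than in beta cells. In that comparison 46.3% of all genes were lower in beta cells. Irx1 and Irx2, under 1 RPKM in the beta libraries, met the filter only through the other groups. A lower beta level was thus built into their being tested. The summed alpha markers were at 236 and 423 RPKM in beta, 1624 and 2371 RPKM in double-positive and 14587 and 15859 RPKM in delta libraries, and Ppy was at 522 and 330, 5852 and 5508, and 16735 and 15817 RPKM. None of these 4 markers was at 0 in any library. In double-positive against beta cells the 3 alpha markers and Ppy were higher as well, where 42.5% of all genes were higher. The part of alpha or PP cells in the Crhr2 signal was not tested.

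Crhr1, the receptor for CRF and urocortin 1, was low and was detected where insulin RNA was high. It was at 0.320 and 0.318 RPKM in the beta libraries (17 and 16 reads), at 0.227 and 0.298 RPKM in the double-positive libraries (7 and 8 reads), and at 0 reads in both delta libraries. A count of 0 still allows 3 reads, which over the delta group is 0.0374 RPKM. With delta cells at that limit and the other groups at their measured levels, Crhr1 was at least 8.55-fold higher in beta and at least 6.97-fold higher in double-positive cells than in delta cells. The counting error of the 33 and 15 reads is not in these bounds: their lower 95% limits were 0.220 and 0.146 RPKM, above the upper limit of 0.0459 RPKM for delta cells. The ratio of beta to double-positive cells was 1.23 with a 95% counting interval of 0.648 to 2.43, so no difference between them was detectable at this depth.

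Crhr1 was outside the main test. In a fit with no filter on low values, it was higher in beta than in delta cells by 0.40 (SE 0.05, limma adjusted p = 0.00537), where 6.06% of 26144 genes were higher. In double-positive against delta cells it was higher by 0.34 (SE 0.05, limma adjusted p = 0.0358), where 1.94% were higher, and against beta cells it differed by -0.06 (SE 0.05, limma adjusted p = 0.40). Requiring 0.1 RPKM in 2 libraries gave limma adjusted p-values of 0.00741 and 0.0481 for the first 2 comparisons. Crhr1 met that filter only through beta and double-positive libraries, so a lower delta level was built into that fit. Double-positive cells thus had reads for both receptors, with Crhr2 above Crhr1 in each library in RPKM, while beta libraries had Crhr1 above Crhr2 and delta libraries had Crhr2 reads and no Crhr1 read.

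Crhbp, the binding protein, was at the limit of detection everywhere. Its RPKM was 0.0275 and 0 in beta, 0.0473 and 0.109 in double-positive and 0 and 0.0378 in delta libraries, which is 0 to 2 reads per library. It did not pass the unfiltered fit in any of the 3 comparisons (limma adjusted p = 0.95, 0.21 and 0.41 for beta against delta, double-positive against beta and double-positive against delta cells). No fold change is given, because all groups are at or under the limit of 3 reads. The other 3 ligands of the family were also near 0: Crh had 0 reads in all 6 libraries, Ucn had 1 read, in the female delta library, and Ucn2 had 1, in the male double-positive library. Ucn3 was thus the only one of the 4 CRF family ligand genes with more than 1 read in any library.

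Among the 15 class B1 receptor genes, the CRF receptors were low. Glp1r, the GLP-1 receptor, led in every group, at 155 RPKM in beta, 119 RPKM in double-positive and 39.1 RPKM in delta cells (means). By mean RPKM, Crhr2 was the 11th of the 15 in beta cells and the 5th in both double-positive and delta cells, behind Glp1r, the GIP receptor Gipr, the glucagon receptor Gcgr and the VIP receptor Vipr1. Crhr1 was the 6th in beta and the 7th in double-positive cells. Its beta level was under that of Vipr2 (0.834 RPKM). At 1 RPKM or more there were 4 receptors in beta and 5 in each of the other groups, and the extra one was Crhr2 in both.

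**Figure D4:**
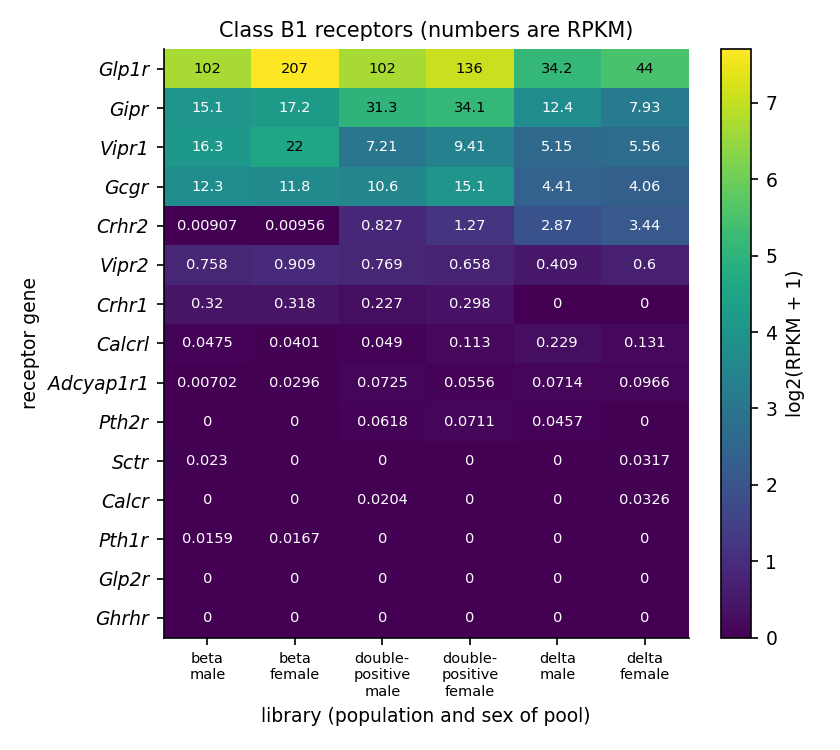
Heat map of the 15 class B1 receptor genes (rows, ordered by mean RPKM) in the 6 libraries (columns). Numbers are RPKM and colour is log2(RPKM + 1); Glp1r is highest in every library, Crhr2 goes from 0.00907 RPKM in the male beta to 3.44 RPKM in the female delta library, and Crhr1 is at 0 in both delta libraries.

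Of these 15 receptors 5 were tested. Crhr2 was the only one lower in beta than in delta cells, while Glp1r (1.88), Gipr (0.64), Gcgr (1.32) and Vipr1 (1.65) were higher. Over all genes 46.3% were lower and 11.7% higher. Crhr2 met the filter only through delta and double-positive libraries. The call of Gipr was lost in 7 of 13 alternative fits, among them the one without delta replicate 2 (0.35, adjusted p = 0.15). Gipr was highest in double-positive cells, at 31.3 and 34.1 RPKM against 15.1 and 17.2 RPKM in beta and 12.4 and 7.93 RPKM in delta libraries. It exceeded beta cells by 0.97 (SE 0.20, limma adjusted p = 0.00705) and delta cells by 1.62 (SE 0.20, limma adjusted p = 0.00397). Vipr1 was lower in double-positive than in beta cells (-1.11, SE 0.18, limma adjusted p = 0.00302). The median of the 5 was 1.32 in beta against delta, 0.07 in double-positive against beta and 1.38 in double-positive against delta cells, beside -0.36, 0.32 and -0.03 over all genes.

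Of 8 tested genes for proteins that work on such receptors, 3 were higher and 2 lower in beta than in delta cells, where 11.7% of all genes were higher and 46.3% lower. The median of the 8 was -0.20 beside -0.36 over all genes. Arrb2, an arrestin that ends receptor signalling, was higher in beta cells by 1.07 and the receptor kinase Grk5 by 2.14, whereas the other arrestin, Arrb1, was lower in them (-1.30), as was Ramp1 (-1.68), an accessory protein of the calcitonin receptor family. Arrb1 and Ramp1 were higher in double-positive than in beta cells by 0.60 and 0.84. Both were under 1 RPKM in the beta libraries and met the filter only through the other groups, so a lower beta level was built in. The count in that comparison was 3 higher and 0 lower (42.5% and 8.46% of all genes), with a median of -0.01 beside 0.32, and with scaling 2 higher and 4 lower, so the direction of the partners as a list depends on scaling. Against delta cells, double-positive cells had 2 partners higher and 2 lower (5.53% and 7.2% of all genes), and only the call of Arrb2 (0.92) held in all 13 alternative fits.

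The Gs and cyclic AMP route, through which both CRF receptors signal, had 18 of its 23 genes tested. In beta against delta cells 8 were lower and 0 higher, where 46.3% of all genes were lower and 11.7% higher, so the count of lower genes was near the background. The median was -0.32 beside -0.36 over all genes, and with scaling 7 were lower and 5 higher. Those lower in all 13 alternative fits were Gnaq (a Gq subunit, -1.18), Gnas (the locus that encodes the Gs alpha subunit, -3.33), the adenylyl cyclases Adcy2 (-2.11), Adcy6 (-1.48) and Adcy8 (-2.98), the cyclic AMP sensor Rapgef3 (-2.50) and Creb1 (-1.25), a cyclic AMP-responsive transcription factor. The same 7 genes were higher in double-positive than in beta cells, again in all 13 alternative fits, among them Adcy8 by 1.88 and Rapgef3 by 1.69. Both comparisons share the beta libraries, so they are not independent of each other. Adcy2, Adcy8 and Rapgef3 were under 0.1 RPKM in beta libraries and met the filter only through the other groups. A lower beta level was thus built into their being tested.

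Adcy8 was at 7.39 and 7.31 RPKM in the delta libraries, at 3.03 and 2.73 RPKM in the double-positive libraries, and under 0.1 RPKM in both beta libraries. In double-positive against beta cells the list had 10 higher and 2 lower, beside 42.5% and 8.46% of all genes, with a median of 0.47 beside 0.32, and with scaling 7 were higher and 4 lower. Against delta cells 0 were higher and 4 lower (5.53% and 7.2% of all genes). The call of Gnas (-1.25) held in all 13 alternative fits, and that of Adcy8 (-1.11) was lost with no filter and a pseudocount of 0.1 (-1.32, adjusted p = 0.093). Gnas shares exonic bases with the antisense gene Nespas and with Gm20721, and Adcy2, Adcy6 and Rapgef3 with antisense transcripts, so with strand counting unstated their reads are uncertain. The Gnas value covers 11186 exonic bases of the locus, so it cannot be read as RNA of the Gs alpha subunit alone.

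Processing of the urocortin 3 precursor needs the enzymes of the secretory granule. All 6 listed genes were tested, and 2 were higher and 1 lower in beta than in delta cells (11.7% and 46.3% of all genes), with a median of -0.27 beside -0.36 over all genes. Pcsk1, a proprotein convertase, was at 140 and 239 RPKM in beta, 153 and 188 RPKM in double-positive and 22.8 and 20.9 RPKM in delta libraries. Its log2 fold change was 3.01 in beta against delta cells (SE 0.25, limma adjusted p = 1.49e-04), 2.90 in double-positive against delta cells (SE 0.25, limma adjusted p = 0.00128) and -0.11 in double-positive against beta cells (SE 0.25, limma adjusted p = 0.73). Unlike Ucn3, the Pcsk1 level of double-positive cells overlapped that of beta cells, whose 2 libraries lay far apart. Within pools it was 109% of the beta level in the male and 78.5% in the female pool. The difference was -0.50 without beta replicate 1. Pam, the amidating enzyme, was at -0.83 in beta against delta cells (SE 0.13, limma adjusted p = 0.00169). In double-positive cells against beta cells 0 of the 6 processing genes passed limma, 1 had an unadjusted p under 0.05, and with scaling 4 were lower. That gene, Pcsk1n, which encodes an inhibitor of Pcsk1, was at -0.96 (limma adjusted p = 0.064) and was called once the pool was blocked (limma adjusted p = 0.027). Against delta cells 1 was higher and 1 lower, and with the block 2 were lower, Pcsk1n being the added one (-1.27, limma adjusted p = 0.029).

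Somatostatin, whose release urocortin 3 is known to promote, had 4 of the 6 genes of its route tested. Sst, Sstr1 and Sstr2 were lower in beta than in delta cells, with log2 fold changes of -9.40, -4.05 and -1.52, where 46.3% of all genes were lower. Sstr1 and Sstr2 met the filter only through the other groups, so a lower beta level was built into their being tested. Sstr1, a somatostatin receptor, was at 14.4 and 19.0 RPKM in delta libraries, 4.80 and 6.10 RPKM in double-positive libraries and under 0.1 RPKM in beta libraries. Double-positive cells exceeded beta cells in Sstr1 by 2.60 (SE 0.17, limma adjusted p = 1.95e-04) and stood below delta cells (-1.45, SE 0.17, limma adjusted p = 0.00345), a call lost with no filter and a pseudocount of 0.1 (-1.59, adjusted p = 0.063). The Sst-cre label selected cells with a history of Sst expression, so the sort and the Sst difference cannot be told apart. Sstr3, the most abundant receptor of the route, was at 31.8 to 50.1 RPKM in all 6 libraries. It was called lower in double-positive than in beta cells, where 8.46% of all genes were lower. That call was lost in several alternative fits, among them no filter on low values (-0.41, limma adjusted p = 0.085). Sstr3 differed by 0.16 in beta against delta cells (limma adjusted p = 0.35), and with scaling by 0.63 (limma adjusted p = 0.0072).

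The sex of the pool is the only other labelled factor. Ucn3 in the female pool was 1.19 times the male level in beta, 1.46 times in double-positive and 0.993 times in delta cells, and Crhr2 was 1.05, 1.54 and 1.20 times. With population in the model, neither passed: the female-against-male difference was 0.26 for Ucn3 (SE 0.12, limma adjusted p = 0.60) and 0.17 for Crhr2 (SE 0.12, limma adjusted p = 0.74). Across all genes 0.361% passed. Each sex is 1 pool of animals per population, so sex and pool cannot be told apart. Summed acinar markers also differed between the pools, at 8619 and 326 RPKM in the male and female beta libraries and 2333 and 168 RPKM in the double-positive libraries, and their part in these ratios was not tested.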

How the data were processed

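RNA from 2 libraries of each sorted population was made with the TruSeq RNA v2 kit after 0.25% trypsin dissociation, per the labels' protocols. The authors deposited 1 table of RPKM values for 46959 symbols. STAR 2.5, featureCounts, edgeR 3.14.0 and GRCm38.p4 are named, without settings, in the submitters' processing notes, and the sources used here do not give the strand setting. The 27 symbols turned into dates were left out.

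Values were transformed to log2(RPKM + 1) and fitted by limma-trend (limma 3.58.1, R 4.3.3) over all 6 libraries. Tests were 2-sided, p-values were adjusted by Benjamini-Hochberg over 13022 genes, and the threshold was an adjusted p of 0.05. The script was tested on simulated data. Library depth and whole reads were recovered from GENCODE M21 exonic lengths, matched to 44027 symbols; 83.3% to 86.4% of values under 50 reads were whole within 0.01 read, and member reads were rounded. No count test was run, because the table holds RPKM. Intervals are exact Poisson at 95% and cover counting error only.

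The series text says that the populations share islets. Deviations of the male and female pools from the group means correlated at 0.47 (beta and double-positive), 0.24 (beta and delta) and 0.36 (double-positive and delta), so the pools pair the libraries; the fit without the block is the one reported. The series text at 1 point calls the double-positive cells alpha-derived. The delta origin given by title, sample labels and Sst-cre was followed.

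The members and gene lists were chosen with earlier results of these data known. Named genes are the 4 members, the listed genes of the CRF pathway, and the 5 closest profiles to each member that passed the filter. Some genes of the lists are not reported here, and list counts, medians and sums leave them out. Marker lists not named in the results summed to 231 and 303 (beta), 166 and 223 (double-positive) and 172 and 233 RPKM (delta) for ductal genes, 3.61 to 6.88 RPKM for endothelial genes and at most 2.39 RPKM for mesenchymal and Schwann or neural genes.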

Additional observations from a re-analysis of the deposited data

Results flagged for a closer look

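For Ucn3, Crhr1 and Crhbp the sign of the female minus male difference was not the same in all populations, but the Ucn3 difference in delta cells and those of Crhr1 and Crhbp lie within counting error. The female library exceeded the male one in Ucn3 by 69.5 RPKM in beta and 49.3 RPKM in double-positive cells, and differed by -0.0159 RPKM in delta cells. For Crhr1 the female minus male difference was -0.00246 RPKM in beta, 0.0713 RPKM in double-positive and 0 RPKM in delta cells. For Crhbp it was -0.0275 RPKM in beta, 0.0615 RPKM in double-positive and 0.0378 RPKM in delta cells. Each sex has 1 library per population, so these differences between populations were not tested. Those of Crhr1 rest on 7 to 17 reads per library outside delta cells, those of Crhbp on 0 to 2 reads, and that of Ucn3 in delta cells on 61 and 56 reads.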

How the results depend on the processing

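Alternatives changed the pseudocount, the filter on low values, the scaling, the pairing of pools or left out 1 library, and 1 alternative (no filter with a pseudocount of 0.1) was chosen after seeing the data. Over all fits of the 4 genes, 112 alternatives kept the direction and the side of the threshold, 2 lost a call and 0 reversed. This count includes the sex comparison and Crhbp, which were not called in any fit. It also includes fits in which the estimate could not change. Ucn3 in double-positive against delta cells, for example, stayed at 5.25 with either beta library left out. Both lost calls were Crhr2 in double-positive against delta cells, at -1.52 in the added alternative (adjusted p = 0.077) and -0.93 without delta replicate 2 (adjusted p = 0.0598); the range with 1 library left out was -1.18 to -0.87. The former adjusts over 26144 genes, and the latter has 1 delta library, assumed to vary like the others. Leave-one-out ranges of Ucn3 were 6.73 to 6.98 in beta against delta, -1.87 to -1.33 in double-positive against beta and 4.98 to 5.52 in double-positive against delta cells. The replicate block (pool sex) changed no call of Ucn3 or Crhr2, with an adjusted p of 3.72e-04 for Ucn3 in double-positive against beta cells.

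Counts of called genes were less stable. Leaving out 1 library gave 5031 to 7823 in beta against delta (7546 with all), 4132 to 7086 in double-positive against beta (6642 with all), and 522 to 2055 in double-positive against delta cells (1657 with all, 846 in the added alternative). For sex, limma called 47 genes, 39 to 422 with 1 library left out, 15 with 0.1 RPKM required in 2 libraries, and 0 both with no filter (1342 genes at an unadjusted p under 0.05) and in the added alternative (1436); the cause was not tested. Depth limits Crhr1 and Crhbp, at 0 to 17 reads, and Crhr2 in beta cells, at 1 read per library.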
